A study of Homo sapiens with 16 samples.

Results

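The genes described here are 8 members of the sterol synthesis programme, HMGCS1, SQLE, IDI1, FDFT1, LSS, INSIG1, SREBF1 and SREBF2, taken by their symbols from the 62710 genes counted in each library. They were followed in 4 human B cell lymphoma lines, each held as a pool targeted at the AAVS control site and as a pool targeted at CREBBP, a histone acetyltransferase that is often mutated in follicular lymphoma. Each pool was sequenced after 4 h of culture without (baseline) or with 10 ng/ml IL4, the T helper cytokine that signals through STAT6, which gave 4 groups of 4 libraries, named by pool and culture (for example AAVS IL4 or CREBBP baseline). All pools had received a lentiviral CRISPR-Cas9 vector with 4 guides per target, and they were used as pools of edited cells rather than as clones. The genotypes were recorded as AAVS -/- and CREBBP -/-. SU-DHL4 cells make up line 1, and DOHH2 cells line 4. The names OCILY7 and SUDHL10 are assigned to lines 2 and 3 in opposite ways by the sample titles and by the cell line entries, and these lines are therefore called line 2 and line 3.

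The sterol pathway builds cholesterol from acetyl-CoA through mevalonate, isoprenoid diphosphates, squalene and lanosterol, and its intermediates also feed protein prenylation and ubiquinone. Its genes are switched on together by the SREBP transcription factors, which are made as membrane precursors and are released by SCAP and Golgi proteases when sterols in the endoplasmic reticulum are low. INSIG proteins hold the precursors in the endoplasmic reticulum when sterols are high. In B cells, growth after activation draws on this programme for membrane and for prenyl groups.

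Of the 8 genes, 6 have a promoter window in the RefSeq set for GRCh38.p14 (300 bases, from 250 before to 50 after a transcript start), with 9 windows in all because HMGCS1 has 2 and IDI1 has 3. SQLE and FDFT1 are not in that set. In their levels, HMGCS1 and INSIG1 on one side and LSS, SREBF1 and SREBF2 on the other were less alike between than within these sets. This held mainly in the 12 libraries outside AAVS IL4. IDI1 went with HMGCS1 and INSIG1 there, but its stretches are not shown. For the other 5 genes, chosen after the values were seen, the stretches that lie before the start are shown. Each runs 5′ to 3′ on the strand of the gene, and capitals mark every match, on either strand, to TCACNCCAC (the sterol regulatory element), CCAAT (the NF-Y box), GGGCGG (the Sp1 box) or CACGTG (the E-box) that lies inside the stretch.
HMGCS1, chr5:43313513-43313662, minus strand: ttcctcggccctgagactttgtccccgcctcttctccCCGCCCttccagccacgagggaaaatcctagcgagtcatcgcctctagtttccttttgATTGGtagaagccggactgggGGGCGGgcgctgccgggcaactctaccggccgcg
INSIG1, chr7:155297628-155297775, plus strand: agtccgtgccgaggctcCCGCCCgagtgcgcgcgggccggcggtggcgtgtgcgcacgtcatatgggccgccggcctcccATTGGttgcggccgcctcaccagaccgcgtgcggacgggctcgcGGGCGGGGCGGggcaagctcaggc
LSS, chr21:46228825-46229024, minus strand: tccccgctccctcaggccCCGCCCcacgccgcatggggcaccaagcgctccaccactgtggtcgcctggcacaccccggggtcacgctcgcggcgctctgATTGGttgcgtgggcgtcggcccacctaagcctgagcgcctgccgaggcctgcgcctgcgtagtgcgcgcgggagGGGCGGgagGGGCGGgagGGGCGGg
SREBF2, chr22:41832855-41833104, plus strand: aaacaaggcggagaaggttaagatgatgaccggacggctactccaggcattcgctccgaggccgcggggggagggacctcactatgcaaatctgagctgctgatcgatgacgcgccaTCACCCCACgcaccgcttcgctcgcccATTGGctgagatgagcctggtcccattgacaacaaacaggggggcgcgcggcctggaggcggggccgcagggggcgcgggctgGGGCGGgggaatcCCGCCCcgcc
SREBF1, chr17:17837003-17837236, minus strand: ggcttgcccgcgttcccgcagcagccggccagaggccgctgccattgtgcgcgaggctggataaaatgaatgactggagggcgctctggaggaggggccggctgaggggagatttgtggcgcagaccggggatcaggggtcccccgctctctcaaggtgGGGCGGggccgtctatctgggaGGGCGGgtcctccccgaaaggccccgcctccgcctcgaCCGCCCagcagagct

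Over their full 300 bases, only the SREBF2 window of these 9 held TCACNCCAC, which began at position -133 from the start, and 1.13% of the 35116 RefSeq windows held it. A CCAAT box was found in the SREBF2, LSS and INSIG1 windows, in 1 of the HMGCS1 windows and in 2 of the IDI1 windows, against 34.6% of all windows. The SREBF1 window held neither and had 3 GGGCGG boxes, a motif that 45.0% of all windows held. CACGTG, present in 7.26% of all windows, was found in the LSS and INSIG1 windows. In LSS, 5 GGGCGG boxes began between positions -75 and -38 from the start, 3 of which fall inside the stretch shown. These matches are counts of letters and say nothing about binding.

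RNA depleted of ribosomal RNA was sequenced, and the libraries held 19649735 to 61981976 counts assigned to genes. The 8 genes were well covered, from 1034 counts (IDI1, AAVS IL4, line 3) to 44127 counts (FDFT1, AAVS IL4, line 4). The shallowest libraries were those of AAVS IL4 in line 3 (19649735 counts) and line 1 (25640336 counts). CREBBP RNA itself lay between 172 and 402 normalised CPM in the AAVS pools and between 96.5 and 304 in the CREBBP pools, and its difference with IL4 had an adjusted p of 0.218 in edgeR (log2 fold change -0.51 ± 0.23, SE, n = 4 lines). An RNA level does not measure the edit at the protein. For the protein, the study reports that immunoblotting showed CREBBP to be lost in the targeted pools. Exons of 6 of the 8 genes (all but SQLE and INSIG1) overlap exons of a gene annotated on the opposite strand, and whether counting used the strand is not given in the sources used here. The 4 AAVS IL4 libraries stood apart from the other 12: CD44 lay between 60.9 and 829.4 normalised CPM in them and at or below 0.651 elsewhere, IGHM between 119 and 1509 in them and at or below 0.0823 elsewhere, and VIM between 73.7 and 613 in them and at or below 7.55 elsewhere. Of 10 markers of naive and memory B cells or plasma cells, 7 were higher in each AAVS IL4 library than in all other 12, as were 7 of 12 T cell markers. The 10 include IGHM and CD44, which were known from earlier results of these data and are among the 7. The same held for 1 of 10 myeloid, 1 of 9 stromal and endothelial, 0 of 7 B cell and 0 of 6 germinal centre B cell markers. The share of all genes that did so is not given here. The summed T cell markers lay between 26.4 and 216 normalised CPM in these 4 libraries and between 9.96 and 132 in the others. In line 2 they were at 94.6 in AAVS baseline, 113 in CREBBP baseline and 132 in CREBBP IL4, against 130 in AAVS IL4. CD2 had 0 counts in all libraries outside AAVS IL4, which no other of the 12 T cell markers did. The summed myeloid markers lay between 5.32 and 22.8 in the AAVS IL4 libraries and between 0.549 and 4.75 in the others. In lines 1 to 4, the summed germinal centre B cell markers were at 1594, 761, 1366 and 1064 in AAVS baseline. In AAVS IL4 they were at 1176, 773, 707 and 1105. They were thus lower with IL4 in lines 1 and 3 and slightly higher in lines 2 and 4. The part of these markers in the results below was not tested. The summed B cell markers lay between 2412 and 4271 normalised CPM in these 4 libraries and between 2863 and 5669 in the others. Lines 1, 3 and 4 differed from each other by 1 to 17 genes that were above 10 CPM in one library and below 0.5 in another, and each differed from line 2 by 149 to 235 such genes, in the 12 libraries outside AAVS IL4. Whether lines 1, 3 and 4 are separate lines was not tested. In RNA from whole pools, fewer cells of a type and less RNA per cell cannot be told apart.

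Levels are given as normalised CPM, gene counts per library total, with these totals scaled by TMM factors (trimmed mean of M values) over all 16 libraries. Divided by the exon length of each gene, the order of the mean levels was INSIG1 (128 ± 40.9 normalised CPM per kb, SD over 16 libraries), FDFT1 (118 ± 47.5), HMGCS1 (78.3 ± 29.9), SREBF2 (64.6 ± 23.9), SQLE (49.2 ± 25.7), IDI1 (23.8 ± 8.15), LSS (21.1 ± 9.88) and SREBF1 (16.1 ± 7.45). The means of each neighbouring pair in this order differed by less than the larger SD of the pair. SREBF2 exceeded SREBF1 per kb in 16 of 16 libraries, by 3.15 to 5.89 times with a median of 3.95. Per gene, the highest library exceeded the lowest by 3.42 times (SREBF2) to 5.72 times (FDFT1). The lowest value was that of AAVS IL4 line 3 for 4 genes (HMGCS1, IDI1, FDFT1 and INSIG1) and that of CREBBP IL4 line 2 for the other 4.

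HMGCS1 makes HMG-CoA, the precursor of mevalonate. In lines 1 to 4 it measured 670.0, 288, 495 and 495 normalised CPM in the AAVS baseline libraries and 349, 364, 178 and 586 with IL4. The CREBBP pools gave 707, 437, 572 and 434 at baseline and 888, 766, 744 and 326 with IL4. IL4 libraries of the AAVS pools were thus lower in lines 1 and 3 and higher in lines 2 and 4, whereas those of the CREBBP pools were higher in lines 1, 2 and 3. The means were 487 ± 156 (SD, n = 4), 369 ± 168, 538 ± 129.8 and 681 ± 245 in the order given, and the groups overlapped. With IL4 the CREBBP pools stood above the AAVS pools by a log2 fold change of 0.92 ± 0.48 (SE; edgeR adjusted p = 0.274), the largest value of the 8 genes in any comparison.

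IDI1 isomerises isopentenyl diphosphate, the step that commits C5 units to chain building. Its levels in lines 1 to 4 were 119, 62.7, 84.3 and 133 normalised CPM in AAVS baseline and 70.0, 88.7, 46.4 and 119 in AAVS IL4. In the CREBBP pools they were 87.1, 82.7, 99.5 and 117 at baseline and 102, 200.3, 115 and 108 with IL4. Line 2 of CREBBP IL4 stood alone at 200.3, and the other 3 lines of that group lay between 102 and 115. IDI1 was the only one of the 8 genes whose IL4 difference was larger in the CREBBP than in the AAVS pool in 4 of 4 lines, by 0.999, 0.78, 1.06 and 0.05 on the log2 scale. The fitted difference in response was 0.72 ± 0.38 (SE), with an edgeR adjusted p of 0.449.

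FDFT1, squalene synthase, makes the compound from which all later steps lead to sterols. It measured 634, 307, 633 and 712 normalised CPM in AAVS baseline and 404, 293, 169 and 798 in AAVS IL4. At baseline the CREBBP pools held 966, 343, 869 and 709, and with IL4 they held 895, 544, 789.9 and 524. The line 3 library of AAVS IL4 was the lowest of the 16. Within lines the CREBBP IL4 library exceeded the AAVS IL4 library in lines 1, 2 and 3, by 1.15, 0.89 and 2.23 on the log2 scale, and the line 4 difference was -0.61. The fitted difference of 0.90 ± 0.46 (SE) had an edgeR adjusted p of 0.262.

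SQLE, squalene epoxidase, carries out the oxygen-dependent step after squalene. Its values were 295, 72.8, 244 and 259 normalised CPM in AAVS baseline and 161, 82.1, 72.2 and 339.7 in AAVS IL4. The CREBBP pools gave 339, 75.5, 276 and 231 at baseline and 359, 68.6, 337 and 180.2 with IL4. Line 2 held SQLE between 68.6 and 82.1 in all 4 conditions, which no other line did in any library but AAVS IL4 line 3. The fitted IL4 differences were -0.43 ± 0.37 (SE) for AAVS and -0.06 ± 0.18 for CREBBP pools.

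LSS closes squalene epoxide to lanosterol, the first sterol. It measured 229, 109.7, 218 and 167 normalised CPM in AAVS baseline and 155, 112, 59.8 and 163 in AAVS IL4. In the CREBBP pools the values were 286, 101, 178 and 88.4 at baseline and 264, 54.7, 185 and 76.1 with IL4. Line 4 was lower in the CREBBP than in the AAVS pool in both conditions, by log2 differences of -0.92 and -1.10, and with IL4 line 2 was also lower (-1.04) while lines 1 and 3 were higher (0.76 and 1.63). The fit over the 4 lines with IL4 gave 0.02 ± 0.50 (SE; edgeR adjusted p = 0.984).

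INSIG1 retains the SREBP precursors and is itself a target of SREBP. Its levels were 484, 181, 543 and 548 normalised CPM in AAVS baseline and 290.0, 503, 168 and 571 in AAVS IL4. The CREBBP pools held 631, 367, 507 and 571 at baseline and 704, 477, 486 and 442 with IL4. Lines 2 and 3 of the AAVS pools moved in opposite directions, by log2 differences of 1.47 and -1.69, the widest split of the 8 genes in that comparison. The fitted IL4 difference in the AAVS pools was -0.16 ± 0.49 (SE), with a 95% interval from -1.35 to 1.02.

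SREBF2 encodes the SREBP that mainly drives sterol genes. In lines 1 to 4 it measured 744, 342, 867 and 455 normalised CPM in AAVS baseline and 546, 469, 262 and 454 in AAVS IL4. In the CREBBP pools it measured 847, 458, 632 and 386 at baseline and 699.9, 254, 565 and 349 with IL4. The CREBBP IL4 library was below its baseline library in 4 of 4 lines, by log2 differences of -0.27, -0.85, -0.16 and -0.15. The fitted value of -0.39 ± 0.20 (SE) had the smallest unadjusted p of the 8 genes in that comparison (0.0769) and an edgeR adjusted p of 0.924.

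SREBF1 encodes SREBP1, which mainly drives fatty acid genes. It measured 198, 84.4, 225 and 98.4 normalised CPM in AAVS baseline and 143, 81.4, 76.4 and 91.0 in AAVS IL4. The CREBBP pools gave 239, 95.1, 176 and 87.3 at baseline and 227, 59.8, 146 and 92.9 with IL4. Lines 1 and 3 held more SREBF1 than lines 2 and 4 in all groups but AAVS IL4, where line 3 lay below lines 2 and 4. SREBF1 was the only one of the 8 that was lower with IL4 in 4 of 4 AAVS lines, by log2 differences of -0.47, -0.05, -1.56 and -0.11, with a fitted value of -0.46 ± 0.28 (SE; edgeR adjusted p = 0.432).

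**Figure D1:**
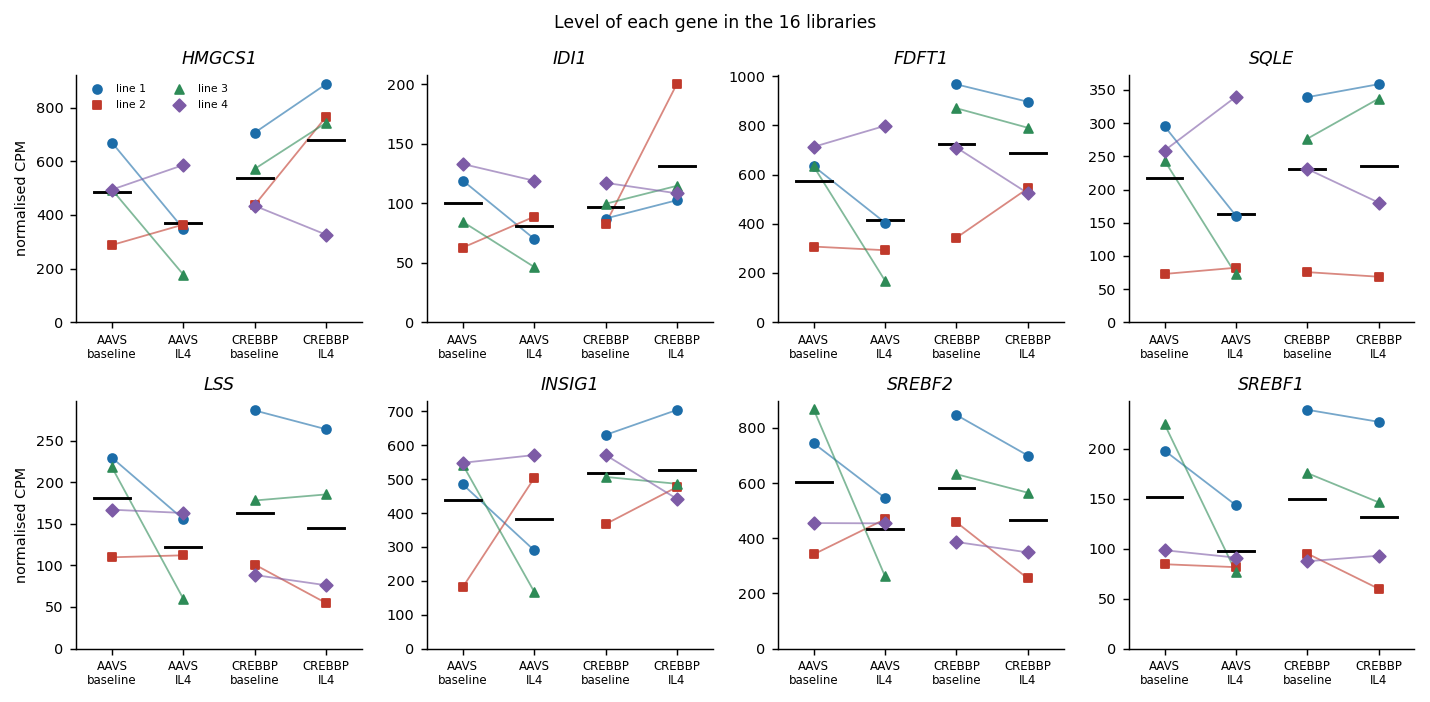
Normalised CPM (vertical axis, from 0) of each of the 8 genes in the 16 libraries, by group (horizontal axis); coloured points are lines 1 to 4, thin lines join the baseline and IL4 library of a pool, and black bars are the means of 4 libraries. The points of line 3 drop in AAVS IL4 in every panel, for example from 867 to 262 for SREBF2, as do those of line 1, whereas lines 2 and 4 each hold genes that are higher and genes that are lower with IL4.

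The first question was whether IL4 alters these genes in the control pools, in which CREBBP was not targeted. All 8 fitted log2 fold changes in the AAVS pools were below 0, from -0.53 (FDFT1) to -0.16 (INSIG1), with a median of -0.41 against 0.01 over all genes tested. None passed: edgeR called 0 of 8 at an adjusted p under 0.05, 0 of 8 had an unadjusted p under 0.05 (16% of all genes did), DESeq2 called 0 (10.6% of all genes), and edgeR called 2.40% of the 20310 genes tested. Adjusted p ran from 0.432 to 0.881. The lines did not move alike. In line 1 all 8 genes were lower with IL4 (median log2 difference -0.69) and in line 3 all 8 were lower (-1.71), whereas 6 of 8 were higher in line 2 (median 0.26) and line 4 had 4 higher and 4 lower (0.03). Without line 3, the fitted median was -0.13, with 6 genes below 0 and 2 above. The CD44 level of the AAVS IL4 libraries ran in the order line 3 (829.4 normalised CPM), line 1 (413), line 4 (136) and line 2 (60.9). IGHM ran in the order line 3 (1509), line 1 (862), line 2 (642) and line 4 (119). VIM ran in the order line 3 (613), line 4 (337), line 1 (279) and line 2 (73.7). The 2 lines with all 8 genes lower were thus the 2 with the most CD44 and IGHM, but not the 2 with the most VIM. They were also the shallowest AAVS IL4 libraries, with 25640336 counts in line 1 and 19649735 in line 3. Line 2 held 33941291 counts and line 4 held 47716763. The part of CD44, IGHM and VIM or of depth in the result was not tested. The 0 of 8 genes whose 4 IL4 values lay wholly to one side of the 4 baseline values compares with 7.04% of all genes.

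In the CREBBP pools the 8 genes lay close to 0 on both sides. HMGCS1 (0.25 ± 0.23, SE, log2) and IDI1 (0.36 ± 0.22) were above 0 and the other 6 below, down to -0.39 for SREBF2, with a median of -0.05 against -0.04 over all genes. EdgeR called 0 of 8 genes and 0% of the 18282 genes tested (502 of which had an unadjusted p under 0.05). Of the 8, 0 had an unadjusted p under 0.05, against 2.75% of all genes, and DESeq2 called 0, against 0.00584% of all genes (2 genes). Adjusted p of the 8 ran from 0.924 to 0.999. The intervals were narrower than in the AAVS pools, and all lay within -0.83 to 0.87. Line medians were 0.0032, 0.12, -0.0006 and -0.29 on the log2 scale in lines 1 to 4, but line 2 joined genes far apart, with IDI1 at 1.28 and HMGCS1 at 0.81 beside LSS at -0.88 and SREBF2 at -0.85. In this comparison 0 of 8 genes and 0.563% of all genes had groups that did not overlap.

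Before IL4 the pools were compared to see whether loss of CREBBP alone shifts the programme. INSIG1 (0.34 ± 0.22, SE, log2) and FDFT1 (0.31 ± 0.20) were the highest of the 8 and LSS (-0.25 ± 0.23) the lowest, with a median of 0.04. EdgeR called 0 of 8 genes and 0% of the 18936 genes tested (2422 genes, or 12.8%, had an unadjusted p under 0.05), and no member had an unadjusted p under 0.05. DESeq2 also called 0 of 8, against 3.14% of all genes. Lines 1 and 2 each had 7 of 8 genes higher in the CREBBP pool (medians 0.23 and 0.29), line 3 had 4, and line 4 had 7 of 8 lower (-0.18). The 95% intervals of the 8 genes lay within -0.75 to 0.84. Groups did not overlap for 0 of 8 genes and for 1.77% of all genes.

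With IL4, all 8 genes were fitted higher in the CREBBP than in the AAVS pools, from 0.01 (SREBF2) to 0.92 (HMGCS1) with a median of 0.53 on the log2 scale, against -0.05 over all genes. The enzymes HMGCS1, FDFT1 and IDI1 were the highest (0.92, 0.90 and 0.69) and LSS and SREBF2 the lowest (0.02 and 0.01). None passed in edgeR, where 4.39% of the 19581 genes tested were called and 0 of the 8 had an unadjusted p under 0.05; the smallest adjusted p was 0.204, for IDI1. DESeq2 called 0 of 8, with an adjusted p of 0.144 for IDI1 and 0.156 for FDFT1. These 2 genes were the only ones of the 8 with an unadjusted DESeq2 p under 0.05 (0.0441 and 0.0493). The share of all genes under that DESeq2 limit is not given here. Over all genes, 25.6% had an unadjusted edgeR p under 0.05 and DESeq2 called 19.5%. The comparison uses the same AAVS IL4 libraries as the IL4 comparison above, so the 2 are not separate evidence. All 8 genes were higher in the CREBBP pool in line 1 (median 0.95) and in line 3 (1.58), 3 of 8 in line 2 (-0.17) and 1 of 8 in line 4 (-0.49). Without line 3 the fitted median was 0.15 with 5 genes above 0, and without line 1 it was 0.31 with 6 above 0. When library totals were used without TMM factors, the median of all genes moved from -0.05 to -0.33 and that of the 8 from 0.53 to 0.25, with LSS, SREBF1 and SREBF2 below 0. Of the 8 genes, 0 had groups that did not overlap, against 13.3% of all genes.

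The difference in IL4 response, taken from all 16 libraries in 1 fit, was above 0 for all 8 genes, from 0.06 (SREBF2) to 0.73 (HMGCS1) with a median of 0.39 against 0.05 over all genes. EdgeR called 0 of 8, with 0 at an unadjusted p under 0.05 and adjusted p from 0.449 to 0.973, and 0.638% of the 21932 genes tested were called (13.3% had an unadjusted p under 0.05). DESeq2 called 0 of 8, against 5.26% of all genes. The 95% intervals reached from -0.97 to 1.72 on the log2 scale. Lines 1 and 3 had all 8 genes above 0 (medians 0.72 and 1.70) and lines 2 and 4 had 3 and 2 (-0.47 and -0.31). Without line 3 the median was -0.01, with 4 genes on each side of 0.

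**Figure D2:**
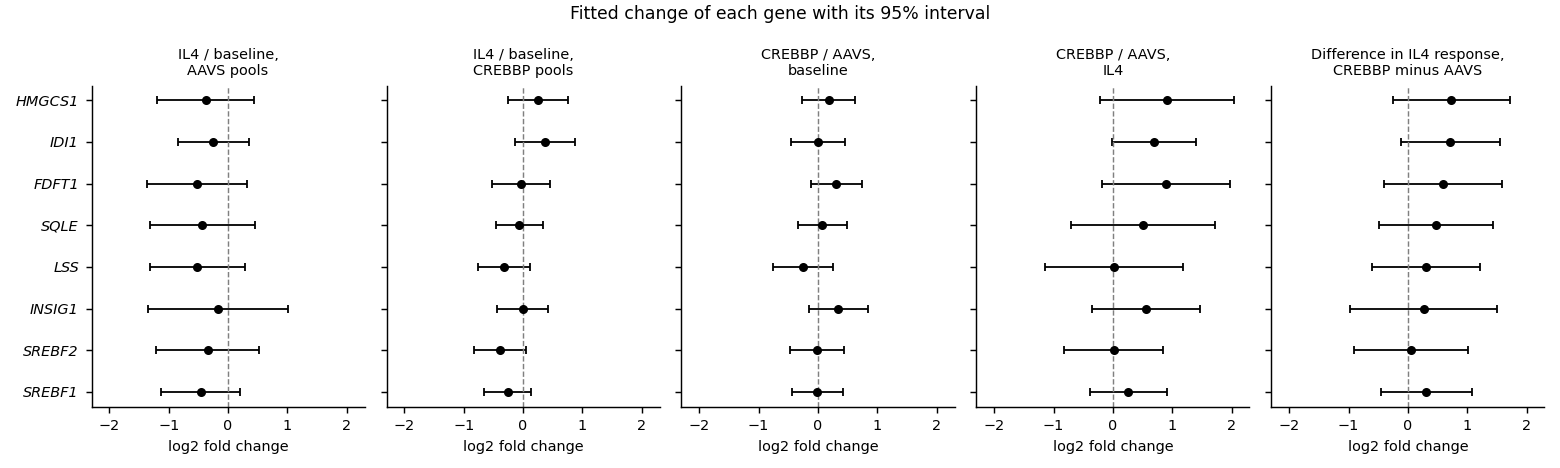
Fitted log2 fold change (horizontal axis) of each of the 8 genes in the 5 comparisons, with 95% intervals from edgeR (n = 4 lines per group). Every interval includes 0, and the intervals are widest where AAVS IL4 libraries enter, for example -1.35 to 1.02 for INSIG1 with IL4 in the AAVS pools.

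**Figure D3:**
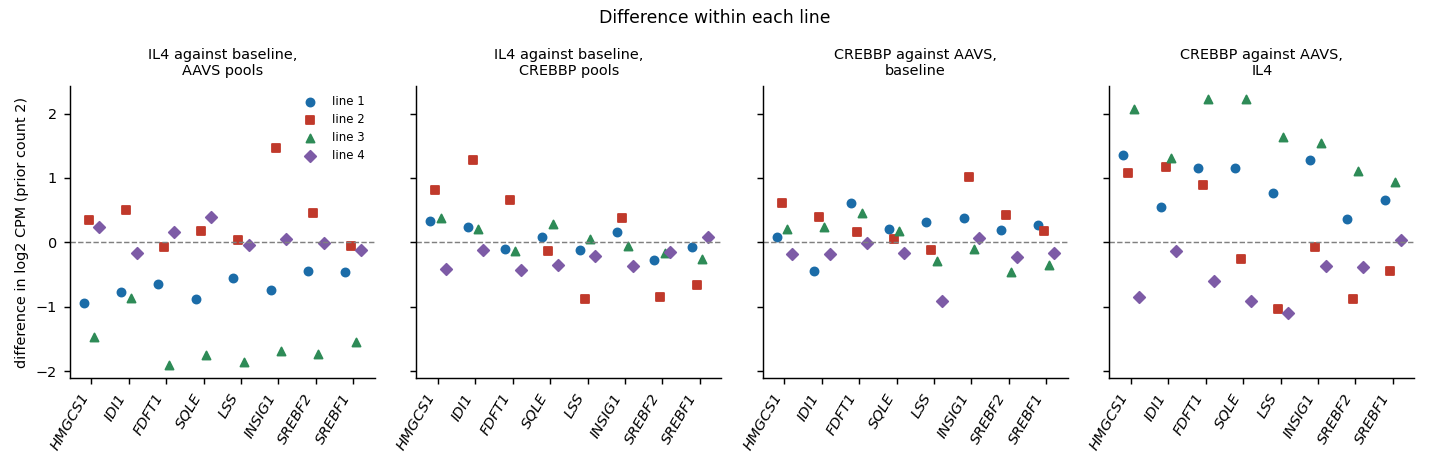
Difference in log2 CPM (vertical axis) between the libraries of the same line, for the 8 genes in the 4 comparisons between groups; colours and symbols are lines 1 to 4. Line 3 lies at the bottom of the AAVS panel for IL4, with a median of -1.71, and at the top of the panel for CREBBP against AAVS with IL4, with a median of 1.58.

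Centred on the mean of each line, the 8 genes had Pearson correlations between pairs from 0.20 to 0.93 over the 16 libraries, with a median of 0.75. Much of this rested on the AAVS IL4 libraries. Without AAVS IL4 line 3 the median of all pairs was 0.57 and the lowest -0.185. In the 12 libraries outside AAVS IL4 they were 0.44 and -0.49. The 16 points share lines and share libraries across genes, and the values are descriptions. HMGCS1, IDI1, INSIG1, SQLE and FDFT1 formed a set with 10 pairs from 0.57 to 0.93, and LSS, SREBF1 and SREBF2 formed another with 3 pairs from 0.85 to 0.93. Between the sets the 15 pairs had a median of 0.61 and were lowest for IDI1 with LSS (0.20), SREBF2 (0.22) and SREBF1 (0.22). The sets were named after the values were seen. In the 12 libraries outside AAVS IL4, the pairs within each set had medians of 0.69 and 0.81. The pairs between the sets had a median of 0.10 there and ranged from -0.49 to 0.69. These 12 libraries are part of the 16, so the values are not a separate check of the sets. SQLE sat between the sets, with 0.86 for LSS over 16 libraries and 0.57 for IDI1. In the 12 libraries SQLE had 0.69 for LSS, of the other set. Within its own set it had 0.72 for FDFT1, 0.62 for HMGCS1, 0.52 for INSIG1 and 0.24 for IDI1.

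The library in which the sets parted most was CREBBP IL4 of line 2. There IDI1 (1.03), HMGCS1 (0.82), FDFT1 (0.60) and INSIG1 (0.42) lay above the mean of the line on the log2 scale, SQLE lay at -0.12, and LSS (-0.73), SREBF2 (-0.54) and SREBF1 (-0.40) lay below. The GC content of the longest transcript was 39.0% for HMGCS1, 41.1% for IDI1, 44.8% for INSIG1, 46.5% for SQLE and 47.0% for FDFT1, and 57.1% for SREBF2, 58.1% for LSS and 63.2% for SREBF1. In this library the deviation of 13757 genes above 1 CPM correlated with GC at -0.34 across genes, which are not independent replicates; the other libraries ranged from -0.34 to 0.35. Its TMM factor, 0.725, was the lowest of the 16. The sets were named after the values were seen, so their match with GC is a description. The part of base composition in the split was not tested. In AAVS IL4 of line 3 the members lay below the line mean from -0.82 (IDI1) to -1.62 (FDFT1), in no order of GC, while 13757 genes gave a correlation of -0.21.

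**Figure D4:**
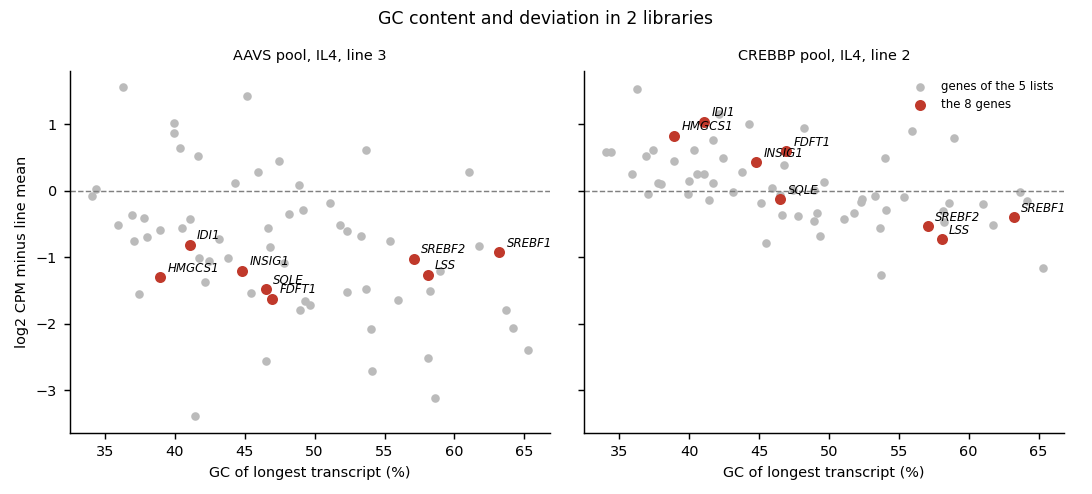
GC content of the longest transcript (horizontal axis, %) against log2 CPM minus the mean of the line (vertical axis) in the AAVS IL4 library of line 3 and the CREBBP IL4 library of line 2, chosen after the values were seen; red points are the 8 genes and grey points the genes of 5 related lists. In the right panel the members run from 1.03 (IDI1, 41.1% GC) to -0.73 (LSS, 58.1%), and in the left panel all lie below 0.

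Of 21924 other genes compared over the 16 libraries, those most like the mean of the 8 by Pearson correlation were MVD (0.96), ALDOA (0.95), MZT2A (0.95), DHCR7 (0.95) and INSIG1-DT (0.95). MVD and DHCR7 are sterol synthesis enzymes, ALDOA is a glycolytic aldolase, MZT2A belongs to the gamma-tubulin ring complex, and INSIG1-DT is a noncoding transcript that starts opposite INSIG1. MZT2A has a nearly identical paralogue, MZT2B, between which counts may be divided. Without AAVS IL4 line 3, the 5 correlations were 0.89 to 0.92. In the 12 libraries outside AAVS IL4 they were 0.94 (MVD), 0.86 (INSIG1-DT), 0.85 (ALDOA), 0.84 (DHCR7) and 0.82 (MZT2A).

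A list of 15 other enzymes of sterol synthesis did not pass either. In the AAVS pools 14 of 15 were fitted lower with IL4, with a median of -0.40 on the log2 scale, and with IL4 15 of 15 were fitted higher in the CREBBP pools (median 0.69). At baseline 13 of 15 were fitted higher in the CREBBP pools with a median of 0.33, where the median of the 8 genes was 0.04, and 4 of 15 had an unadjusted p under 0.05 against 12.8% of all genes. EdgeR called 0 of 15 in each of the 5 comparisons, with 0 to 5 at an unadjusted p under 0.05 (2.75% to 25.6% of all genes). With IL4, 5 of 15 had an unadjusted p under 0.05 for CREBBP against AAVS (25.6% of all genes) and DESeq2 called 4 (19.5% of all genes). PMVK, which phosphorylates mevalonate phosphate, had the smallest p there (1.14 ± 0.28, SE; edgeR adjusted p = 0.0650; higher in 4 of 4 lines). At baseline EBP, the sterol isomerase, was 0.56 ± 0.19 higher in the CREBBP pools in 4 of 4 lines (edgeR adjusted p = 0.295), and LBR in the AAVS pools gave -0.29 ± 0.17 with IL4 (adjusted p = 0.421). SC5D, a late desaturase, had the smallest p for IL4 in the CREBBP pools (0.42 ± 0.15, adjusted p = 0.924) and for the difference in response (0.78 ± 0.30, adjusted p = 0.301).

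Among 11 genes of SREBP processing and sterol sensing, edgeR called 0 in each comparison. An unadjusted p under 0.05 was found for 1 or 2 of them (2.75% to 25.6% of all genes). RNF145, an ubiquitin ligase of the endoplasmic reticulum that acts on SCAP, had the smallest p in 3 of the comparisons. Its log2 fold change was 1.26 ± 0.29 (SE) for IL4 in the AAVS pools (edgeR adjusted p = 0.0959, higher in 4 of 4 lines) and -1.09 ± 0.28 for CREBBP against AAVS with IL4 (adjusted p = 0.0694, lower in 4 of 4 lines). The difference in response was -1.30 ± 0.34 (adjusted p = 0.129). These 3 rest on the same AAVS IL4 libraries and were opposite in sign to those of the 8 genes. DESeq2 called RNF145 in all 3 (adjusted p = 0.00581, 0.00869 and 0.0186), where it called 10.6%, 19.5% and 5.26% of all genes. INSIG2 gave 0.51 ± 0.22 for IL4 in the CREBBP pools (edgeR adjusted p = 0.924), and RNF139 -0.51 ± 0.22 for CREBBP against AAVS at baseline (adjusted p = 0.369).

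For sterol uptake, trafficking and efflux, 10 of 10 genes were tested, and edgeR called 0. Each comparison had 0 to 4 at an unadjusted p under 0.05 (2.75% to 25.6% of all genes). ABCG1, which exports sterol, gave -1.63 ± 0.37 (SE, log2) for IL4 in the AAVS pools (edgeR adjusted p = 0.0886, lower in 4 of 4 lines), -1.11 ± 0.33 for CREBBP against AAVS at baseline (adjusted p = 0.256) and 1.48 ± 0.43 for the difference in response (adjusted p = 0.173). DESeq2 called ABCG1 and ABCA1 in the AAVS IL4 comparison (10.6% of all genes) and in the difference in response (5.26% of all genes). NR1H2 had the smallest p for CREBBP against AAVS with IL4 (-0.60 ± 0.22, adjusted p = 0.151), and SOAT1 that for IL4 in the CREBBP pools (0.28 ± 0.15, adjusted p = 0.924).

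The fatty acid genes driven mainly by SREBP1 had 11 of 12 members tested (ME1 was not). Their median was -0.58 on the log2 scale for IL4 in the AAVS pools, with 9 of 11 below 0, and 0.74 for CREBBP against AAVS with IL4, with 8 of 11 above 0. EdgeR called 0 in each comparison, with 0 to 3 at an unadjusted p under 0.05 (2.75% to 25.6% of all genes). DESeq2 called 0 (0.00584% to 19.5% of all genes). ACSL3 had the smallest p for IL4 in the AAVS pools (-0.50 ± 0.19, SE; adjusted p = 0.267) and for the difference in response (0.72 ± 0.26, adjusted p = 0.273). ACLY, which makes cytosolic acetyl-CoA, gave 0.60 ± 0.20 for CREBBP against AAVS at baseline (adjusted p = 0.298) and 0.96 ± 0.38 with IL4 (adjusted p = 0.170), and FASN -0.51 ± 0.23 for IL4 in the CREBBP pools (adjusted p = 0.924, lower in 4 of 4 lines).

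The 10 genes of the isoprenoid branches were tested in full, and edgeR called 0. Each comparison had 0 to 4 at an unadjusted p under 0.05 (2.75% to 25.6% of all genes). For CREBBP against AAVS with IL4, 9 of 10 were above 0 with a median of 0.43, 4 had an unadjusted p under 0.05 (25.6% of all genes) and DESeq2 called 3 (19.5% of all genes). PDSS1, which builds the ubiquinone side chain, had the smallest p there (1.06 ± 0.30, SE, log2; edgeR adjusted p = 0.0838; higher in 4 of 4 lines). PGGT1B, the geranylgeranyl transferase subunit, had it in the other 4 comparisons. It gave -0.40 ± 0.16 for IL4 in the AAVS pools (adjusted p = 0.298) and 0.40 ± 0.15 in the CREBBP pools (adjusted p = 0.924). PGGT1B gave -0.41 ± 0.19 for CREBBP against AAVS at baseline (adjusted p = 0.398) and 0.91 ± 0.23 for the difference in response (adjusted p = 0.117). DESeq2 called it in the difference (adjusted p = 0.0133), as it did 5.26% of all genes.

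**Figure D5:**
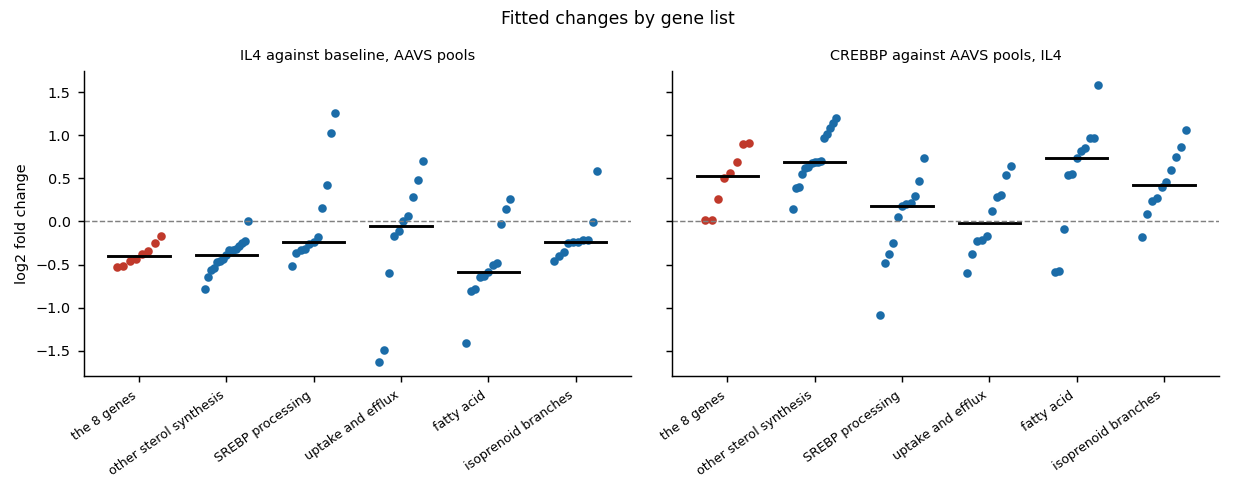
Fitted log2 fold change (vertical axis) of the 8 genes (red) and of the genes of 5 related lists (blue) for IL4 in the AAVS pools and for CREBBP against AAVS with IL4; each point is a gene and black bars are medians. The medians of the 8 genes and of the other sterol enzymes lie at -0.41 and -0.40 in the left panel and at 0.53 and 0.69 in the right panel, and both panels use the AAVS IL4 libraries.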

How the data were processed

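Ribosome-depleted RNA of 16 libraries (4 groups, 4 lines, 50 ng input, paired-end 151 bp) was measured. Per the submitters' processing notes and the study's methods, the authors trimmed reads with cutadapt 2.3, checked them with FastQC 0.11.8 and MultiQC 1.7, aligned them to GRCh38 with STAR 2.7.8a and estimated gene counts with RSEM 1.3.3. The deposited values are RSEM expected counts, all whole as deposited. The 4 reporter rows that name no human gene held 0 counts and were dropped. Totals of 19649735 to 61981976 counts set the precision.

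Genes were kept with filterByExpr, scaled with TMM and tested with edgeR 4.0.16 (quasi-likelihood, two-sided; Benjamini-Hochberg over all genes tested; called at an adjusted p under 0.05), with the line as block because the labels tie a number to 1 cell line, or the pool for the difference in response. The deviations of libraries of a line from their group means correlated with medians of 0.409, 0.685, 0.227 and 0.596 in lines 1 to 4 (lowest -0.08, line 3). SE is the log2 fold change over the root of F. Differences within lines used log2 CPM with a prior count of 2. The study names DESeq2 without a term for lines, so DESeq2 1.42.0 was an alternative, beside other scalings, filters, no block, all libraries in 1 fit, and leaving out each line. With this block, p-values rest on how much the differences within lines vary over the 4 lines, not on the spread of levels between lines. They take the 4 lines as separate, which was not tested for lines 1, 3 and 4. Tests were checked on simulated data. Simulated 2-fold changes were called for 3% of changed genes (IL4, AAVS pools), 39% (IL4, CREBBP pools) and 26% (baseline). They were called for 1% with IL4 (CREBBP against AAVS) and 0% in the difference in response. For 4-fold changes the shares were 62%, 88%, 89%, 37% and 40% in the same order. A gene that was not called is therefore not shown to be unchanged. Exon length and GC came from GENCODE 44 (R 4.3.3, Python 3.11.15).

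The 8 genes and all lists were chosen with earlier results of these data known. All 8 are named in each comparison, with CREBBP, IGHM, CD44 and VIM, the 5 genes most alike in pattern, and, from each list, up to 4 genes called (largest log2 fold change) or else the gene of smallest p; ABCA1 was named after its values were seen. Some genes of the lists are not reported here and were left out of every list count.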

Additional observations from a re-analysis of the deposited data

Results flagged for a closer look

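Of 32 groups of 4 libraries (8 genes in 4 groups), 2 had a library farther from the others than Dixon's 95% limit for a group of 4 allows, and chance gives about 1 in 20. IDI1 measured 200.3 normalised CPM in CREBBP IL4 line 2, and the gap to the nearest line took 0.877 of the range of the group. INSIG1 measured 704 normalised CPM in CREBBP IL4 line 1, with a gap of 0.830 of the range. Neither gene passed the edgeR test in a comparison that uses these libraries.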

How the results depend on the processing

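Under 11 alternatives, 0 of the 8 genes passed an adjusted p of 0.05 in any comparison. The smallest adjusted p they reached was 0.0809, for IDI1 in CREBBP against AAVS pools with IL4 when all 16 libraries were fitted together with the line as block (log2 fold change 0.75); elsewhere the smallest were 0.269 (IL4, AAVS pools), 0.839 (IL4, CREBBP pools), 0.385 (baseline) and 0.322 (difference in response). The 8 genes had 1034 counts or more in each library, and with 4 lines a group the intervals reached from -1.38 to 2.05 on the log2 scale. The causes of the changes below were not tested.

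Of 440 single-gene values under alternatives, 48 changed sign, none of them past 0.50 in size. With library totals in place of TMM factors the signs turned for SQLE (-0.029) and IDI1 (-0.096) at baseline, for LSS (-0.26), SREBF1 (-0.012) and SREBF2 (-0.26) in CREBBP against AAVS with IL4, and for SREBF2 in the difference in response (-0.15); in those 3 comparisons the median of all genes moved to -0.13, -0.33 and -0.16. With RLE factors they turned for INSIG1 with IL4 in the CREBBP pools (0.022), for SREBF2 in CREBBP against AAVS with IL4 (-0.0074) and for SREBF2 in the difference (-0.011). With DESeq2 the same 3 gave 0.021, -0.0042 and -0.0092. Without a filter on low counts, IDI1 (-0.039) turned at baseline. With at least 10 counts in every library, IDI1 turned at baseline (-0.019), LSS (-0.075) and SREBF2 (-0.083) with IL4, and SREBF2 in the difference (-0.11). In 1 fit of all 16 libraries, SQLE (0.019), FDFT1 (0.014) and INSIG1 (0.045) turned for IL4 in the CREBBP pools, IDI1 at baseline (-0.034), and LSS (-0.026) and SREBF2 (-0.028) with IL4.

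The line was the block in each comparison because the same number marks the same cell line. With no replicate block, SQLE (0.020) and INSIG1 (0.0011) turned for IL4 in the CREBBP pools, and IDI1 (-0.043) at baseline. Over all genes, the fit without the block called 540 in place of 859 genes for CREBBP against AAVS with IL4 and 2 in place of 140 for the difference, and the count stayed within 1.5 times of that with the block elsewhere.

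When 1 line was left out, the values for IL4 in the AAVS pools ran from -0.71 to 0.25 (INSIG1) and from -0.64 to 0.0022 (SREBF2). In the CREBBP pools they ran from -0.17 to 0.066 (SQLE), -0.24 to 0.13 (FDFT1) and -0.11 to 0.15 (INSIG1). At baseline they ran from -0.098 to 0.15 (IDI1), -0.12 to 0.079 (SREBF1) and -0.14 to 0.11 (SREBF2). For CREBBP against AAVS with IL4 they ran from -0.036 to 0.95 (SQLE), -0.50 to 0.45 (LSS) and -0.33 to 0.36 (SREBF2), and for the difference from -0.029 to 0.79 (SQLE), -0.21 to 0.61 (LSS), -0.19 to 0.59 (INSIG1) and -0.42 to 0.42 (SREBF2). In the comparisons that hold AAVS IL4 libraries the sign turned without line 3 for each of these 9 values, and also without line 1 for LSS and SREBF2 in CREBBP against AAVS with IL4.

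The counts over all genes moved more. For IL4 in the AAVS pools, 488 became 1851 without a filter, 25 with at least 10 counts, 2551 with DESeq2, 1270 in 1 fit of all libraries, and 64 to 1035 when 1 line was left out. For IL4 in the CREBBP pools, 0 became 40 without a filter and 2 with DESeq2. At baseline, 0 became 586 without a filter, 494 with DESeq2 and 0 to 515 when 1 line was left out. For CREBBP against AAVS with IL4, 859 became 1331 with library totals, 3466 without a filter, 4717 with DESeq2, 4393 in 1 fit of all libraries and 25 to 2547 when 1 line was left out. For the difference, 140 became 1191 without a filter, 69 with at least 10 counts, 1117 with DESeq2 and 16 to 264 when 1 line was left out. Of the genes of the 5 related lists, edgeR called 0 of 57 tested in each of the 5 comparisons. For IL4 in the AAVS pools, 3 were called without a filter, 3 with DESeq2 and 3 in 1 fit of all libraries. At baseline 2 were called without a filter. For CREBBP against AAVS with IL4, 11 were called in 1 fit of all libraries, 8 with DESeq2, 6 without a filter, 3 without line 2, 1 with library totals and 1 with at least 10 counts. For the difference, 4 were called without a filter and 4 with DESeq2. The other settings called 0. Over all genes, DESeq2 called 10.6% for IL4 in the AAVS pools, 19.5% for CREBBP against AAVS with IL4 and 5.26% for the difference. The counts of all genes called under the other settings are those given above.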
